A study of Mus musculus with 66 samples.

Results

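The broad H3K9me3 domains described here are the stretches of the mouse autosomes that were covered without a long break by H3K9me3 islands in nearly all prefrontal cortex (PFC) samples of adolescent DBA/2J mice. Along chr1-19, 200 bp windows that lay in a listed island in at least 18 of the 22 H3K9me3 lists were joined into runs, runs separated by 1000 bp or less were merged, and runs of 20 kb or more were kept. This gave 89 domains of 30942 runs. The members were therefore chosen on the measured H3K9me3 cover, and their length and cover are given as a description, without a test.

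Each sample pooled the PFC of 3 DBA/2J mice of the same sex and treatment, and chromatin immunoprecipitation sequencing (ChIP-seq) was run for H3K9me3, for H3K36me3 and for the input, which is sonicated chromatin that was not precipitated. Ethanol mice received 4 g/kg of a 25% w/v solution by gavage between postnatal days (PND) 29 and 42, with pauses between dosing days, and water mice were given water in its place. PFC was collected 24 h after dosing ended. There were 6 male ethanol, 5 male water, 6 female ethanol and 5 female water pools, and the 66 libraries came as 44 island lists, since the input entered only as a read count in each list. The PFC was bulk tissue of an inbred strain, so fewer cells that carry a mark at a site and less of the mark per cell cannot be told apart.

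H3K9me3, the tri-methylation of lysine 9 of histone H3, is a mark of heterochromatin, and it is laid down over satellite repeats, retrotransposons and clusters of genes that were duplicated recently. KRAB zinc-finger proteins recruit the methyltransferase SETDB1 to such elements through the corepressor TRIM28, and the zinc-finger genes themselves are often covered by the mark. H3K36me3 is mostly found over the bodies of transcribed genes, and is also known to occur together with H3K9me3 over zinc-finger gene clusters.

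The sequences below are taken from the GRCm38 genome. Their domains were picked for motif matches or input depth, not for length, and do not stand for all domains. Both of the first stretches hold repeated copies of ACTGGAGAG, shown in capitals, which encodes the start of the linker that joins neighbouring C2H2 zinc fingers. They lie at chr13:65647867-65648148, inside the domain chr13:65639801-65665200, and at chr17:17039484-17039765, inside the domain chr17:17039001-17063000, both on the + strand and outside annotated genes.
zinc-finger linker stretch on chr13: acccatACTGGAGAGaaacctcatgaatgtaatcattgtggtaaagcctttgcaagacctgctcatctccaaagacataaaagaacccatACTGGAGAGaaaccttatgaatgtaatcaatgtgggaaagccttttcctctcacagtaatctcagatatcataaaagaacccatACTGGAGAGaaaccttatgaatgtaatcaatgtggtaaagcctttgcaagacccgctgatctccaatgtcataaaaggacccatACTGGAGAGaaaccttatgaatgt
zinc-finger linker stretch on chr17: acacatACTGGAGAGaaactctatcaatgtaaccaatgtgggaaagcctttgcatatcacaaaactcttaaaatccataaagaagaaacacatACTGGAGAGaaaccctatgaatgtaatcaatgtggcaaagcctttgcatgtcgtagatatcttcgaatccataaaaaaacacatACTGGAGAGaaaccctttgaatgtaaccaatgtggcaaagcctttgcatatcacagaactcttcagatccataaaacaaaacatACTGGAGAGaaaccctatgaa
The next stretch is a 234-base unit at chr9:3023265-3023498, on the + strand in an intron of the lincRNA Gm26870 inside the domain chr9:2999801-3038400, with capitals at the 9 bases that differ in the unit that follows it (96.2% of the bases were equal).
chr9 repeat unit: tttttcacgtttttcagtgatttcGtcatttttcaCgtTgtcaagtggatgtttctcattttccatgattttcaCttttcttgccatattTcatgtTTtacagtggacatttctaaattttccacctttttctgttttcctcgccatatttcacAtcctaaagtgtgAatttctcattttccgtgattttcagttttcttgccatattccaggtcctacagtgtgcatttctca
The last stretch lies at chr8:123538541-123538650, on the + strand in an intron of Gm20388 inside the domain chr8:123537401-123624200, and is repeated with all 110 bases equal at chr8:123540248-123540357 and at chr8:123541933-123542042. Its capitals mark TGGTGCCGA, the letters with which the phenylalanine tRNA primer binding site of some retroviruses begins.
chr8 repeat copy 1: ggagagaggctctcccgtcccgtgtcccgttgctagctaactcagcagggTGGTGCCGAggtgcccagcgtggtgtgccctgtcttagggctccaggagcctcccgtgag

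Domains ranged from 20 to 123 kb in length, with a median of 26.8 kb against 2.8 kb for all runs. They made up 0.288% of the runs and 3.25% of their length, which is 3.16 Mb of 97.3 Mb. The domains closest to the length limit from inside were chr13:12830401-12850400 and chr8:19903201-19923200 of 20 kb and chr12:20221201-20241400 of 20.2 kb, with a median H3K9me3 fold over input of 2.04, 1.71 and 2.31. Just outside were chr5:109763201-109783000 and chr9:3302801-3322600 of 19.8 kb and chr2:36941001-36960600 of 19.6 kb, at 1.98, 1.87 and 1.78. Fold over input here is ChIP reads over input reads, scaled by the constant that each list applies to its input.

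The domains were clustered. They lay on 13 of 19 chromosomes, and 73 of the 89 had another domain within 1 Mb, which left 30 separate loci. Chromosome 13 held 21 domains, chr8 held 14, chr4 held 13 and chr1 held 11. Within loci the median gap between neighbouring domains was 30.2 kb and the shortest was 1.2 kb.

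Of the libraries, male ethanol 4 was the deepest, with 14.2 M H3K9me3 reads in listed islands against a lowest value of 5.73 M, while its H3K36me3 library was the shallowest, with 1.703 M reads in listed islands against up to 4.80 M and no H3K36me3 island in 4 domains. Female water 2 had the weakest precipitation, with a median fold over input of 1.58 in domains and 1.14 in the other runs. The domains together held 0.508 to 1.00 M H3K9me3 reads, 0.404 to 0.629 M input reads and 0.232 to 0.502 M H3K36me3 reads per pool. Much of this came from the chr9 satellite domain, which alone held 5.94e4 to 9.18e4 CPM of H3K9me3, where CPM is reads in a run per M reads in all runs after TMM scaling of the libraries.

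Domains were more strongly enriched than the other runs in every pool. The median H3K9me3 fold over input of the domains was 2.06 over the 22 pools (range 1.58 to 2.30), compared with 1.76 for runs of 10 to under 20 kb, 1.51 for runs of 5 to under 10 kb and 1.47 for shorter runs. By group, the median fold over domains was 2.13 ± 0.12 (SD, n = 6) in male ethanol, 2.03 ± 0.059 (n = 5) in male water, 2.10 ± 0.092 (n = 6) in female ethanol and 1.93 ± 0.22 (n = 5) in female water pools. Male ethanol pools ran from 1.97 to 2.30 and male water pools from 1.98 to 2.13, and female ethanol pools ran from 2.03 to 2.27 against 1.58 to 2.12 with water, so the treatment groups overlapped in both sexes. The lowest female water value was that of female water 2. Since length and H3K9me3 reads come from the same lists, these values are a description of what the rule selected.

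**Figure D1:**
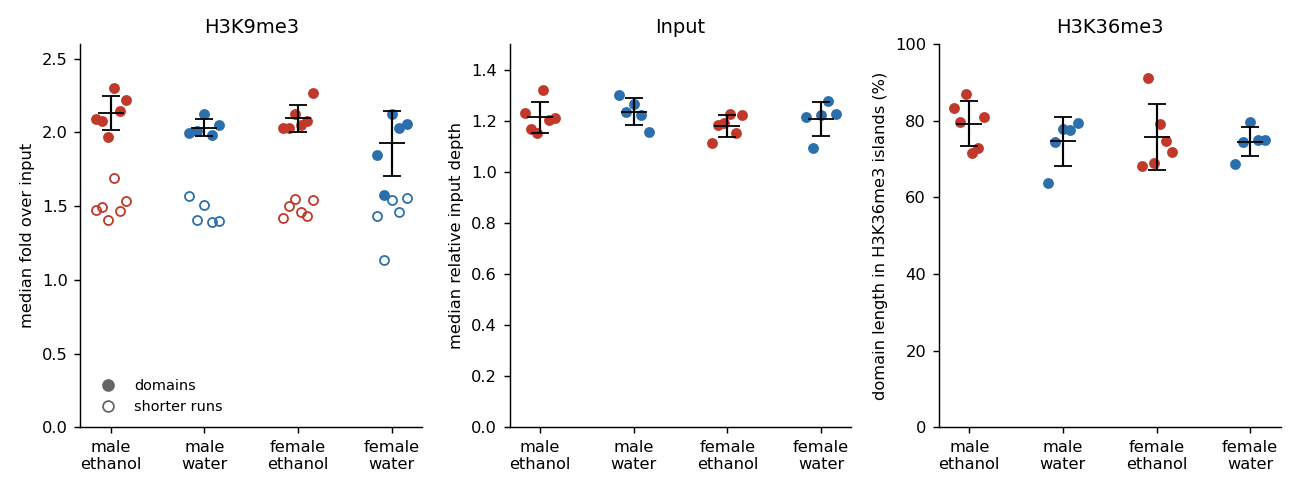
Each point is 1 pool, by sex and treatment, for 3 levels over the 89 domains: median H3K9me3 fold over input (filled, with the other runs as open points), median relative input depth and the percent of domain length in H3K36me3 islands; bars are group means with SD. The fold of the domains lay between 1.58 and 2.30, above that of the other runs (1.14 to 1.69) in every pool, while ethanol and water pools overlapped.

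The edges of the domains were sharp for both marks. In the 2 kb inside an edge, 94.1% of windows lay in H3K9me3 islands (median over 22 pools), and in the 2 kb outside 37.4%. Farther out, from 2 to 30 kb, the cover was 44.6 to 55.5%, so domains sat in surroundings that carried many shorter islands. The H3K9me3 step follows from the rule. H3K36me3 was not used by the rule, but its lists share the input of each pool with H3K9me3. It covered 63.5% (49.9 to 83.6%) just inside and 15.2% (9.04 to 41.1%) just outside, and every pool was higher inside than outside. From 2 to 30 kb out its cover was 20.0 to 34.8%. For both marks the 2 kb outside an edge thus lay below the farther surroundings.

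**Figure D2:**
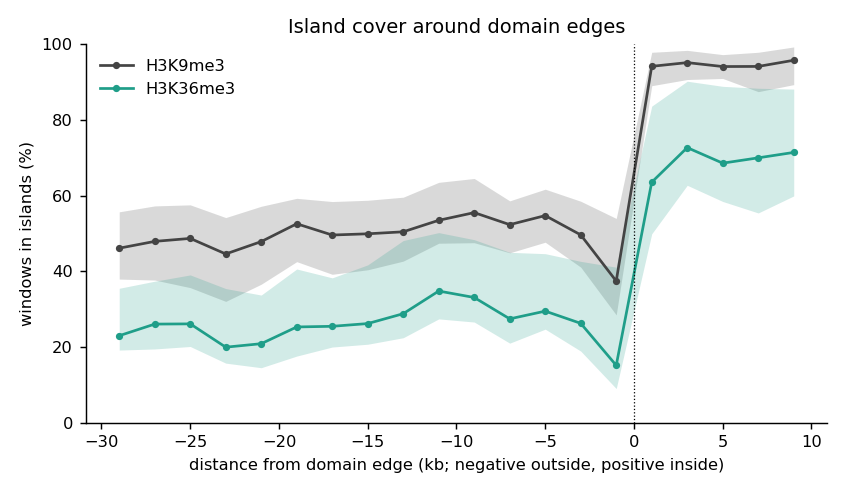
Percent of 200 bp windows in islands against the distance from the nearest domain edge in kb (negative outside, positive inside), for H3K9me3 and H3K36me3; lines are medians of 22 pools and shading their range. H3K36me3 cover stepped from 15.2% in the 2 kb outside to 63.5% in the 2 kb inside, and was 20.0 to 34.8% from 2 to 30 kb outside.

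Over their whole length, domains were covered by H3K36me3 islands to 74.9% (63.7 to 91.2% over pools), compared with 50.6% (41.6 to 73.0%) for runs of 10 to under 20 kb. The group means were 79.2 ± 6.0% in male ethanol, 74.6 ± 6.3% in male water, 75.6 ± 8.6% in female ethanol and 74.5 ± 3.9% in female water pools, closer together than the pools within a group. Enrichment for H3K36me3 was slight, with a median fold over input of 1.25 (1.15 to 1.48) in domains and 1.19 (1.07 to 1.46) in runs of 10 to under 20 kb. Of the 89 domains, 76 had more than 50% and 18 more than 90% of their length in H3K36me3 islands in the median pool.

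The input was not even over the domains, and H3K36me3 cover moved with it. Relative input depth, which is input reads per kb of island divided by the median over all runs of the library, had a median of 1.22 in domains (1.09 to 1.32 over pools) against 0.969 in runs of 10 to under 20 kb. In 16 domains it was 2 or more, and 12 of these lay in the chr8 locus at chr8:19695001-20837600. These 16 domains had a median H3K9me3 fold of 1.47 and a median H3K36me3 cover of 97.7% (87.3 to 100%). The other 73 had a fold of 2.12 and a cover of 69.4% (25.2 to 93.8%). Across the 89 domains, log2 input depth correlated with H3K36me3 cover (Pearson r = 0.62, Spearman rho = 0.94) and inversely with log2 H3K9me3 fold (r = -0.62, rho = -0.39). The domains share their libraries and the input is the denominator of the fold, so these are descriptions. Whether the input depth plays a part in the H3K36me3 cover was not tested.

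**Figure D3:**
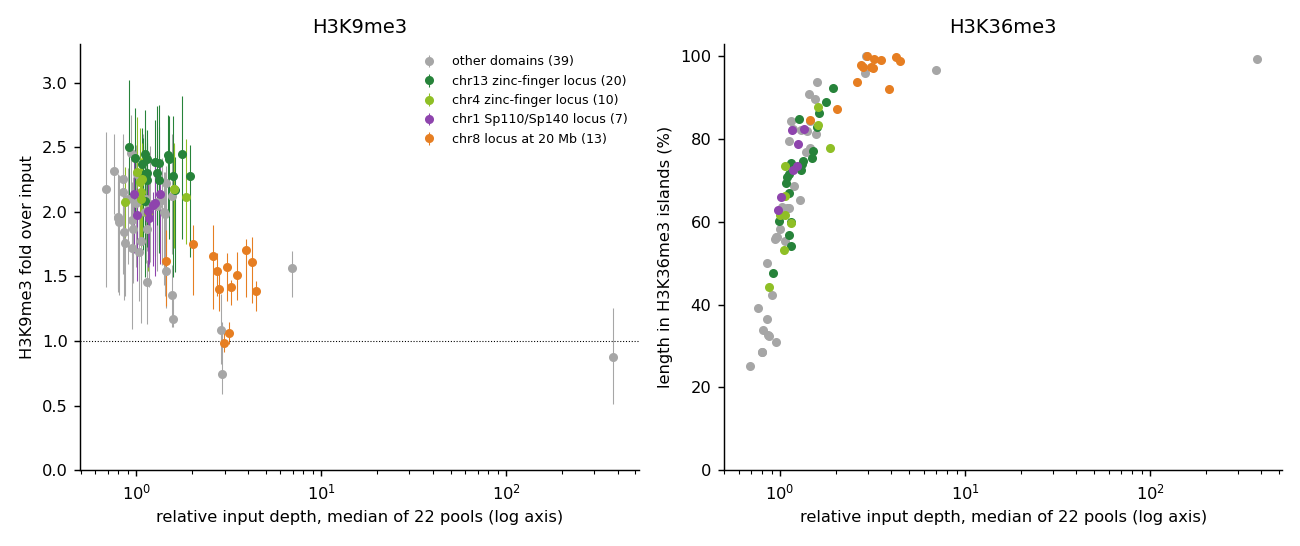
Median H3K9me3 fold over input (left, with the range over 22 pools) and median percent of length in H3K36me3 islands (right) of each domain, against its median relative input depth on a log axis, coloured by locus. The 16 domains with a depth of 2 or more lie at lower fold and at an H3K36me3 cover of at least 87.3%.

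Most domains held H3K9me3 above input, but a few did not. Of the 89, 51 had a median fold of 2 or more and 84 were above 1 in all 22 pools. Against the name went 3 domains. The median fold of chr8:123537401-123624200 was 0.746, that of chr9:2999801-3038400 was 0.874 and that of chr8:20136601-20157200 was 0.982. Islands with a false discovery rate (FDR) of at most 0.01 covered 50% or more of the length in all 22 lists for 77 domains. For chr8:123537401-123624200 and chr8:20136601-20157200 this was so in 1 list each, and for chr9:2999801-3038400 in 7. These domains are therefore long stretches of listed islands in which H3K9me3 reads did not exceed the scaled input in most pools.

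The zinc-finger locus on chr13 held the most domains and the domain of highest fold. Its 20 domains lay in chr13:65340601-66803400, with a median fold of 2.34 and a range of 2.08 to 2.50 between domains. The domain chr13:65589001-65610400 was the highest of all, at 2.47 ± 0.32 in male ethanol, 2.53 ± 0.093 in male water, 2.68 ± 0.19 in female ethanol and 2.39 ± 0.21 in female water pools. All 4 groups overlapped. Over the whole locus the median fold ran from 2.20 to 2.62 in male ethanol, 2.20 to 2.36 in male water, 2.34 to 2.64 in female ethanol and 1.77 to 2.49 in female water pools. Only 2 of the 20 domains overlapped a protein-coding gene, Gm10324 and 2410141K09Rik.

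The linker letters ACTGGAGAG, searched on both strands (reverse complement CTCTCCAGT), occurred in 49 of the 89 domains (55.1%), compared with 33.5% of the 119568 tiles of 20 kb on chr1-19 and 22.0% of runs of 10 to under 20 kb. Per 100 kb there were 7.34 matches in domains, 2.67 in those runs and 2.19 in tiles. The excess lay in 2 loci, named here after their counts were seen. The chr13 locus held 151 and the chr17 pair at chr17:17039001-17229200 held 30 of the 232 matches, while the other 67 domains held 51, which is 2.07 per 100 kb and no higher than in tiles, and 40 domains held none. Of 128 gaps under 1000 bases between matches on the same strand, 123 were whole multiples of 84 bases, the 28 residues of a C2H2 finger with its linker, and 94 were exactly 84. The domain chr17:17039001-17063000 held 18 matches, as did chr13:65793001-65819600 and chr13:66106801-66152000. Linker density and log2 fold correlated weakly across the 89 domains (r = 0.29, rho = 0.34).

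The chr4 locus at chr4:145429401-147644600 had 10 domains with a median fold of 2.16, and it held all 5 named zinc-finger genes that overlapped a domain: Zfp990, Zfp600, Zfp981, Zfp982 and Zfp979. These were 5 of the 422 genes listed by a zinc-finger symbol (1.18%), compared with 51 of all 20807 protein-coding genes (0.245%). The list did not hold Gm10324 or 2410141K09Rik of the chr13 locus. By group, the fold of the locus was 2.26 ± 0.13 in male ethanol, 2.11 ± 0.068 in male water, 2.21 ± 0.094 in female ethanol and 2.04 ± 0.20 in female water pools. Ethanol and water pools overlapped in both sexes.

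On chr1, 7 domains at chr1:85000601-85622400 had a median fold of 2.05 and overlapped Sp110 and Sp140, which encode nuclear body proteins of immune cells, and the predicted genes C130026I21Rik, A530032D15Rik and Gm10553. The longest domain of all, chr1:85224001-85347000 of 123 kb, had a fold of 2.14 ± 0.14 in male ethanol and 2.14 ± 0.11 in male water pools. In females it was 2.15 ± 0.088 with ethanol and 2.00 ± 0.29 with water. Fold did not move with length across the domains (r = -0.21, rho = 0.01).

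The domain chr1:88210201-88262400 overlapped 9 genes of the Ugt1a cluster, which encodes enzymes that glucuronidate bilirubin and drugs in the liver, and of these Ugt1a1 lay wholly inside it, as did Mroh2a. Its fold was 1.88 ± 0.11 in male ethanol, 1.84 ± 0.12 in male water, 1.96 ± 0.079 in female ethanol and 1.79 ± 0.11 in female water pools. Other domains overlapped genes of the germ line. The domain chr7:15430401-15454000, with a fold of 2.45 (1.89 to 2.75), lay within the oocyte homeobox gene Obox1 and outside its exons, and Tdpoz3 and Tdpoz4 lay in a chr3 pair with a median of 1.99. Of 40 Pramel and oocyte genes, 4 overlapped a domain, where 0.245% of all protein-coding genes did, and of 10 Speer genes the single gene Speer4d did.

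Across all domains, 34 overlapped 51 protein-coding genes and 55 overlapped none, while 51 held an annotated pseudogene. No olfactory receptor, vomeronasal receptor or protocadherin gene overlapped a domain, but with 0.245% of all protein-coding genes in domains a count of 0 says little of a short list. Of the domain length, 23.8% was genic, which includes all of chr8:123537401-123624200 through an intron of Gm20388. Of the 51 genes, 10 overlapped the Ugt1a domain and 9 lay in the chr9 satellite domain. The pseudogene count and genic share were not taken over all runs.

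The chr8 locus at chr8:19695001-20837600 was distinct in its input. Coordinates are those of the GRCm38 genome, and the copy number of this locus in DBA/2J mice was not measured. The 13 domains of the locus had a median relative input depth of 3.09, a median H3K9me3 fold of 1.54 and a range of 0.98 to 1.75 between domains. The domain chr8:20309401-20424200 of 114.8 kb, which overlaps Gm15319, had a fold of 1.41 ± 0.049 and 1.39 ± 0.053 in male ethanol and water pools, and of 1.38 ± 0.017 and 1.33 ± 0.076 in female ethanol and water pools. In the same locus, chr8:20136601-20157200 was at 1.02 ± 0.023 in male ethanol and 0.977 ± 0.013 in male water pools, with pools from 0.991 to 1.05 and 0.962 to 0.995.

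The chr9 domain was the most extreme in depth. Its relative input depth had a median of 379, and 71.0% of its bases equalled the base 234 positions further on, against a median of 31.2% over other offsets. A unit of 234 bases with an inner period of 58 is that of the mouse major satellite, the repeat of pericentromeric heterochromatin. Reads with several placements were discarded by the authors for H3K9me3, and whether the reads listed here each fit a single copy was not tested. The domain chr8:123537401-123624200 differed in base composition, with 63.1% GC against a median of 40.7% for domains, and it held 51 of the 53 matches to TGGTGCCGA (both strands, reverse complement TCGGCACCA) found in all domains, spaced by 1668 to 1727 bases. Of all 20 kb tiles, 4.48% held this match.

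The ethanol comparison asked whether binge ethanol changed either mark or the input in these domains. The rule asked for cover in nearly all H3K9me3 lists. A stretch covered only with ethanol, only with water or only in a single sex could therefore not be a domain. The H3K9me3 tests thus compare reads within stretches that were covered in nearly all pools, which favours small differences. They cannot show whether whole domains were gained or lost with ethanol. Reads in each run were tested within each sex with edgeR, and p-values were adjusted over all runs. Pools of a group were close in H3K9me3, with a median within-group SD of log2 CPM of 0.11 (0.06 to 0.20 over domains), the same as for input, and 0.18 for H3K36me3. With ethanol against water in males, 0 of 89 domains had an unadjusted H3K9me3 p of at most 0.05 by edgeR and 0 by DESeq2, where 2.36% of the 30550 runs tested did. No run passed an adjusted p of 0.05 (0%). The log2 changes of the domains ran from -0.13 to 0.06 with a median of 0.00, and 46 of 89 were higher. This number was 20 without male ethanol 1, when 3 domains, all lower, were at the unadjusted threshold, 29 without male water 1, 27 without male water 4 and up to 63 without male ethanol 2, so no direction can be given for the males. The median SE was 0.06, and runs of 10 to under 20 kb had 7 of 437 at the unadjusted threshold.

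The smallest male p belonged to the chr9 satellite domain, at a log2 change of -0.09 ± 0.05 (SE), followed by chr8:123537401-123624200 at -0.13 ± 0.09 and by chr5:145664001-145686400 near the drug-metabolising gene Cyp3a41a at -0.08 ± 0.05. Leaving out 1 pool brought these to -0.06 (without male ethanol 3), -0.08 (without male water 1) and -0.05 (without male ethanol 4). The adjusted p of edgeR rounded to 1.00 for all 89 domains. In females, 0 of 89 domains reached the unadjusted threshold by edgeR and 0 by DESeq2, where 2.31% of runs did, and none passed the adjusted threshold (0%). Their log2 changes ran from -0.17 to 0.12 with a median of -0.02, while the median of all runs was 0.05. Higher values were seen in 32 of 89 domains, but in 81 of 89 when the libraries were scaled by aligned reads instead of TMM factors, so no direction can be given for the females. Leaving out 1 pool gave 0 to 3 female domains at the unadjusted threshold, with 3 without female water 4.

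The female domains of smallest p were chr1:171524801-171564800 at -0.17 ± 0.10, chr8:123537401-123624200 at -0.17 ± 0.11 and chr8:20272001-20308000 at -0.17 ± 0.12 (log2 change ± SE, edgeR). Without female water 4 the first was at -0.08 and the last at -0.06, and without female water 1 the second was at -0.10. The first overlaps Itln1, which encodes a lectin, and Cd244a, which encodes a receptor of natural killer cells. Its H3K9me3 CPM ran from 357 to 421 in female ethanol pools, with a median of 376, and from 361 to 541 in female water pools, with a median of 399. The groups overlapped, and the female water pools were more spread.

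**Figure D4:**
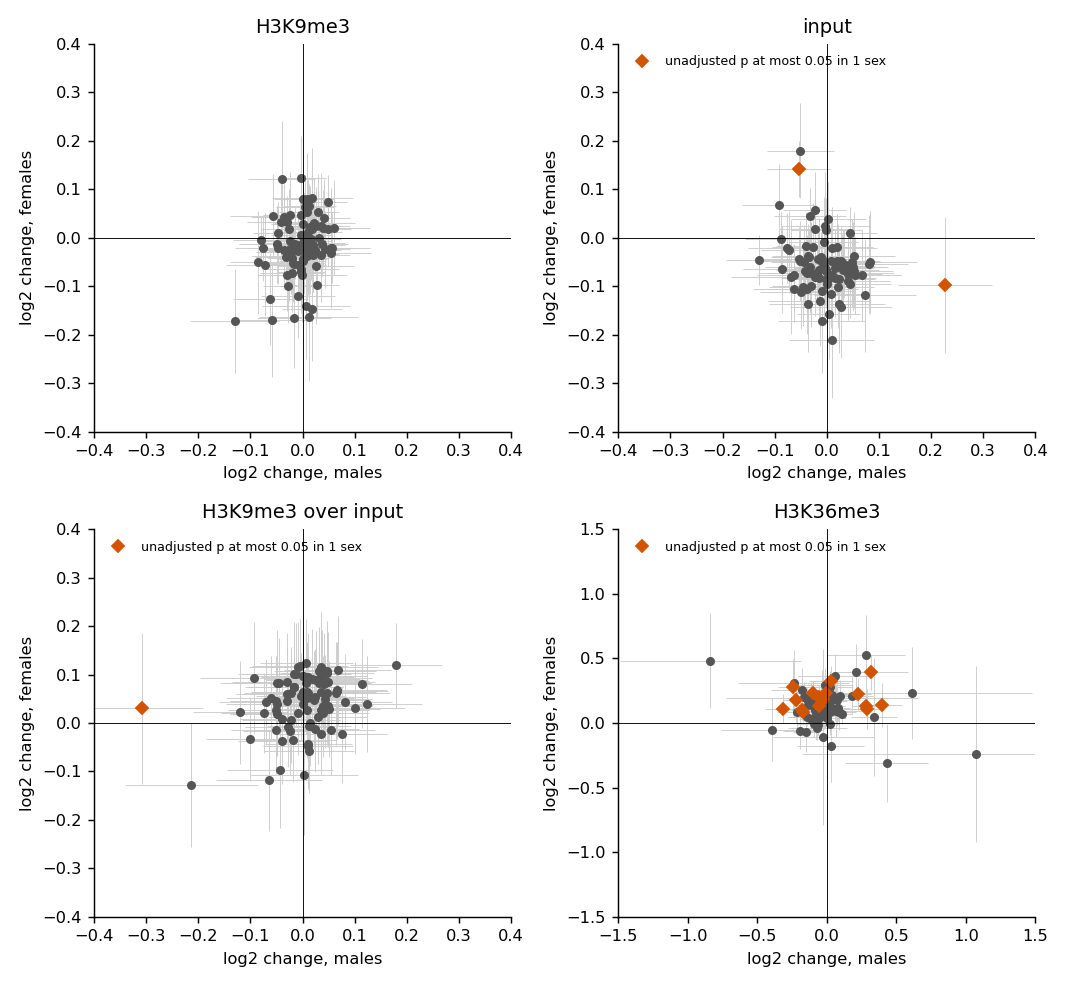
Log2 change with ethanol in males (horizontal) against females (vertical) of each domain for H3K9me3, input, H3K9me3 over input and H3K36me3; grey lines are SE and diamonds mark domains at an unadjusted p of at most 0.05 in 1 sex. H3K9me3 domains lie between -0.17 and 0.12 with no diamonds, and H3K36me3 domains spread more widely.

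Whether the ethanol difference in H3K9me3 differed between the sexes was tested with an interaction term. By edgeR, 0 of 89 domains had an unadjusted p of at most 0.05 (DESeq2 0), where 2.25% of runs did, and none passed the adjusted threshold (0%). Interaction values ran from -0.18 to 0.16. The smallest p was at chr8:19695001-19747200, which overlaps 4930467E23Rik, with an interaction of -0.12 ± 0.08. Its H3K9me3 CPM were 1210 ± 64 with ethanol and 1188 ± 33 with water in males, and 1129 ± 45 with ethanol and 1209 ± 118 with water in females. The next was chr5:15033801-15055000 at -0.16 ± 0.12. Without female water 4 these values were -0.07 and -0.04. Across domains the male and female log2 changes correlated at r = 0.26 and rho = 0.23 (n = 89, with no shared libraries between the sexes).

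Females and males were then compared, averaged over the treatments. By edgeR, 3 of 89 domains were lower in females at an unadjusted p of at most 0.05, which is 3.37% and near the 3.12% of all runs, and none passed the adjusted threshold (0%). At chr7:5943801-5964800, 46.2 kb from the vomeronasal receptor gene Vmn1r65, H3K9me3 CPM were 176 ± 8.3 and 177 ± 7.0 in male ethanol and water pools and 165 ± 13 and 151 ± 18 in female ethanol and water pools. The log2 difference, female minus male, was -0.16 ± 0.05. Input CPM there were also lower in females, at 111 ± 5.9 and 101 ± 5.5 against 122 ± 8.5 and 126 ± 4.6 in male ethanol and water pools. Beside it stood chr17:38505001-38525200 near the exocrine gland peptide gene Esp34, at -0.10 ± 0.03, and chr7:5623201-5643800 at -0.13 ± 0.05, which is named because the count is small. Leaving out 1 pool gave 3 to 27, with 27 without female water 4 and 5 without male ethanol 2. The domains as a whole were 82 lower and 7 higher in females, at a median of -0.04 against -0.03 for all runs.

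For input reads in males, 1 of 89 domains was at the unadjusted threshold by edgeR, where 2.79% of runs were, and none passed the adjusted threshold (0%). This was the chr9 satellite domain, at 0.23 ± 0.09, with a median of 1.26e5 input CPM (1.08e5 to 1.54e5) in male ethanol and 1.03e5 (9.96e4 to 1.23e5) in male water pools, which overlapped. The call was lost under the replicate block (0.23), with aligned reads as library size (0.14) and without any 1 of male ethanol 1 and 2 and male water 1, 2 and 3 (0.17 to 0.20), and with FDR islands the single domain called was a lower one. With aligned reads, 11 domains were called, all lower with ethanol, and the median over domains was -0.09 in place of 0.00, so no direction can be given for the male input. In females, 1 domain was at the threshold, where 2.45% of runs were, again with none past the adjusted one (0%). It was chr7:5943801-5964800, higher with ethanol by 0.14 ± 0.06. It missed the threshold under the replicate block, with FDR islands and without any 1 of female ethanol 1, 4 and 6 and female water 2, 4 and 5, at log2 changes of 0.11 to 0.15, and the 5 domains called with FDR islands were all lower. Over all 89 domains in females, 10 were higher and the median was -0.06, compared with 0.05 for all runs. Without female water 4, 40 were higher. The input reads were counted in the H3K9me3 islands, and the log2 changes of H3K9me3 and input correlated across domains at r = 0.55 in females and r = -0.16 in males (n = 89).

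Setting H3K9me3 against the input of the same pool, 1 of 89 domains in males was at the unadjusted threshold by limma, where 5.41% of runs were, and none passed the adjusted one (0%). This was again the chr9 satellite. Its fold over input in male ethanol pools was 0.697, 0.781, 0.840, 0.845, 0.852 and 1.105, and in male water pools 0.861, 0.887, 0.997, 1.13 and 1.21. All male water pools lay above all male ethanol pools except male ethanol 4, the deepest library. The log2 change was -0.31 ± 0.12 (limma adjusted p = 0.886). With islands at an FDR of at most 0.01 no male domain was called for this ratio, so the chr9 call was lost. In females the same domain was at 0.924 ± 0.18 with ethanol and 0.885 ± 0.28 with water, and the groups overlapped. Since the male input was higher there with ethanol, as given above, the ratio and the input are not independent.

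The domain chr13:12830401-12850400, 30.3 kb from the nearest gene start, that of Prl2c3, was next. Its fold in male ethanol pools was 2.09, 2.16, 2.17, 2.21, 2.23 and 2.26, and in male water pools 1.79, 1.84, 1.87, 1.88 and 1.92. The male groups did not overlap in fold, yet the log2 change of 0.18 ± 0.09 against the pool medians missed the unadjusted threshold (limma adjusted p = 0.913). With no centring of the pools the change was 0.28 and passed the unadjusted threshold. Male H3K9me3 CPM there were 278 ± 7.0 with ethanol and 269 ± 5.6 with water, and overlapped. Male input CPM were 177 ± 11 with ethanol and 193 ± 12 with water, so the ratio and the input are not independent. In females the fold was 2.11 ± 0.11 with ethanol and 1.87 ± 0.27 with water, and its log2 change was 0.12 ± 0.09. No female domain was at the unadjusted threshold by limma (0 of 89), where 4.73% of runs were, and none passed the adjusted one (0%). The median female change over domains was 0.05, against 0.004 for all runs, and 70 of 89 were higher. Female input was lower in 79 of 89 domains, at a median of -0.06, so here too the ratio and the input are not independent.

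**Figure D5:**
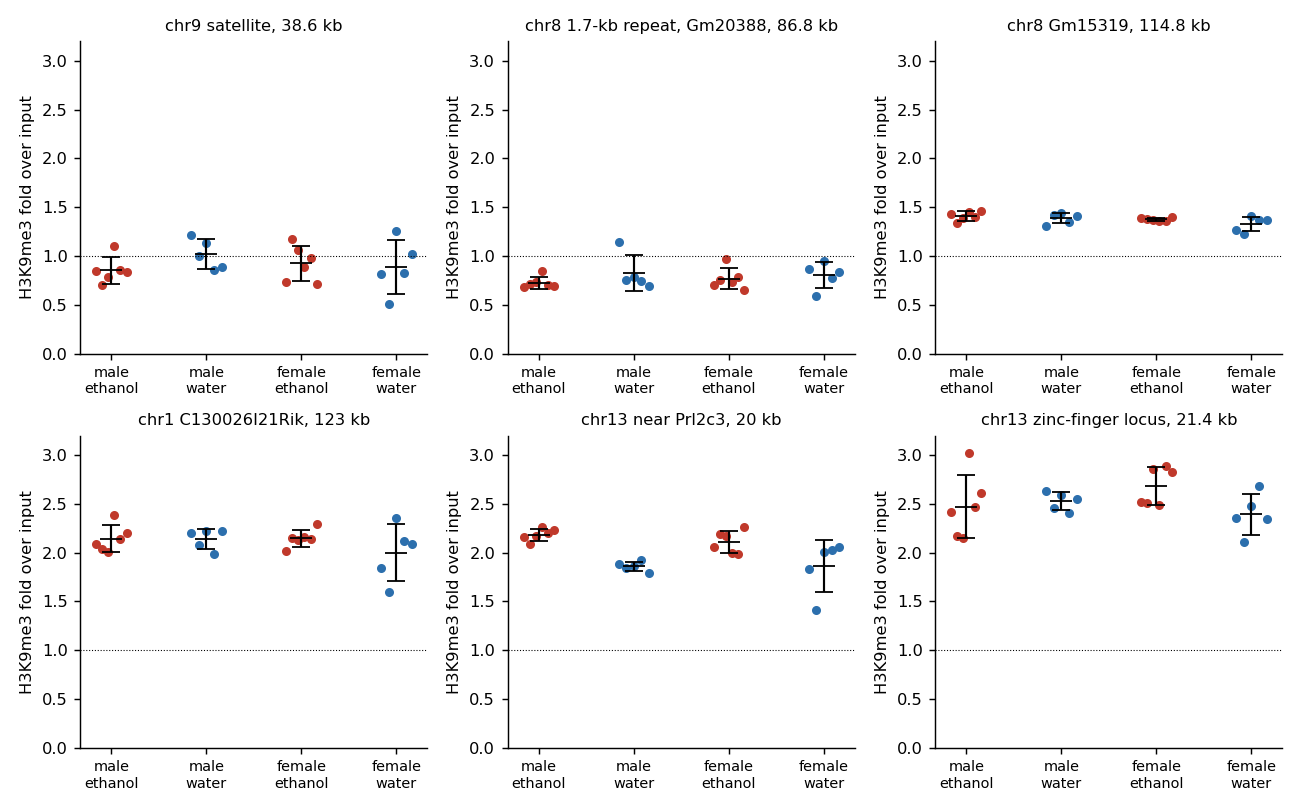
H3K9me3 fold over input in each pool, by sex and treatment, for single domains named in the text; points are pools, bars are group means with SD and the dotted line is a fold of 1. At chr13:12830401-12850400 the male ethanol pools (2.09 to 2.26) lie above the male water pools (1.79 to 1.92), and the chr9 satellite domain lies around 1. Male H3K9me3 CPM at chr13:12830401-12850400 overlapped (266 to 287 with ethanol, 264 to 277 with water). Mean male input CPM there were 177 with ethanol and 193 with water.

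H3K36me3 gave the largest number of domains at the unadjusted threshold. In males, 9 of 89 were at an unadjusted p of at most 0.05 by edgeR (10 by DESeq2), which is 10.1%, where 1.49% of the 21674 runs tested were and 5.54% of runs of 10 to under 20 kb. None passed the adjusted threshold (0%). By DESeq2, 82 of the runs tested did, none of them a domain. Of the 9, 4 were higher with ethanol and 5 lower, while with no TMM factors 5 domains were called, all higher. The median over domains was -0.03. With islands at an FDR of at most 0.01, 0 of the 86 domains tested were called and their median was 0.32, and leaving out 1 pool gave 4 domains (without male water 2 or 3) to 11 (without male ethanol 4, the shallowest H3K36me3 library). Many short runs hold few H3K36me3 reads: the median SE was 0.10 in domains and 1.07 in all runs.

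The smallest male p was at chr13:65793001-65819600, in the chr13 zinc-finger locus. Male ethanol pools had 264, 290, 294, 310, 311 and 328 H3K36me3 CPM there, and male water pools 138, 234, 248, 257 and 261. The groups did not overlap, and male water 1 was the lowest. The log2 change was 0.40 ± 0.14 (edgeR adjusted p = 1.00), and 0.26 without male water 1. With FDR islands it was 1.32 and missed the unadjusted threshold. H3K36me3 islands covered 76.1 ± 9.7% of the domain in male ethanol and 50.4 ± 14% in male water pools. In females, H3K36me3 CPM were 267 ± 74 with ethanol and 242 ± 25 with water, which overlapped.

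The other male domains higher with ethanol were chr13:66106801-66152000 over Gm10324 (log2 change 0.28), chr7:15430401-15454000 within Obox1 (0.29) and chr13:65734801-65763400 (0.22). Lower with ethanol were chr1:171063601-171085400 overlapping the IgG receptor gene Fcgr3 (-0.31), chr17:17204401-17229200 (-0.24), chr13:65589001-65610400 (-0.22), chr11:3152801-3200000 overlapping the centrosome gene Sfi1 and the GTPase gene Drg1 (-0.18) and chr8:20136601-20157200 (-0.17). The chr13 locus, which holds 20 of the 89 domains, had 3 of the higher and 1 of the lower domains.

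In females, 8 of 89 domains were at the unadjusted H3K36me3 threshold by edgeR (19 by DESeq2), which is 8.99%, where 0.951% of the 20935 runs tested were and 6.02% of runs of 10 to under 20 kb. None passed the adjusted threshold (0%). All 8 were higher with ethanol, and 78 of 89 domains had a log2 change above 0, with a median of 0.13 against 0.04 for all runs. With no TMM factors, 4 were called and 75 of 89 were above 0. With islands at an FDR of at most 0.01, 1 of the 87 tested was called. The median change of all runs then fell below 0, as given at the end, so no direction is given for the females. Leaving out 1 pool gave 6 to 19 (19 without female ethanol 5). By DESeq2, 32 of the runs tested passed the adjusted threshold, none of them a domain. The smallest p was at chr7:41175601-41202000 within Gm5592, with a log2 change of 0.17 ± 0.06 (edgeR adjusted p = 1.00). Female ethanol pools had 472 to 539 H3K36me3 CPM and female water pools 416 to 468, which did not overlap, while male ethanol pools had 473 ± 76 and male water pools 486 ± 36.

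The other 7 were chr1:118098201-118120800 (0.39), chr12:114119601-114146400 (0.32), chr12:114815201-114853000 (0.23), chr13:65340601-65364000 (0.24), chr3:93800801-93832600 over Tdpoz3 (0.20), chr4:145530001-145568800 overlapping Zfp990 (0.19) and chr13:65612801-65635600 (0.13). The male and female log2 changes across the 89 domains had r = -0.18 and rho = 0.10. Whether the H3K36me3 change differed between the sexes was not tested.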

How the data were processed

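ChIP-seq of H3K9me3 and H3K36me3 from 22 pools was analysed from 44 island lists. For H3K9me3, the authors trimmed reads with CutAdapt, placed them on GRCm38 with Bowtie2 2.4.1, removed reads in blacklisted regions or with several placements, and called SICER islands of each library against its input. For H3K36me3 these steps were not given in the sources used here. The lists hold, as the authors deposited them, whole-number counts of ChIP and input reads per island, p-values and q-values of ChIP against scaled input, and a fold ratio, all without pooling of samples. Libraries were grouped by title, and the members, gene lists and tests were chosen with earlier results of these data known.

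Reads of an island were apportioned to runs by overlapped length. Runs with adequate counts (filterByExpr) were tested in each sex with edgeR 4.0.16 (quasi-likelihood test, TMM) and, for log2 ratios of ChIP to input with 1 read added and at least 10 input reads per pool, limma 3.58.1, in R 4.3.3. Interaction and sex were tested over all 22 pools. P-values were adjusted by Benjamini-Hochberg over all runs, and the unadjusted threshold of 0.05 is that of the study. P-values measure the spread between pools. DESeq2 1.42.0, other scalings (with aligned-read totals from the supplement of the study), filters and left-out pools were alternatives, and the steps were tested on simulated data. Named domains were the longest, most gene-rich, highest and lowest, and those of smallest p, and others were named for small counts. Genes came from GENCODE vM21 and sequences from the RefSeq GRCm38.p6 genome. Python 3.11.15, numpy 2.4.6, pandas 2.3.3 and matplotlib 3.10.9 were used.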

Additional observations from a re-analysis of the deposited data

Results flagged for a closer look

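In all, 10 values stood far from the rest of their group by Dixon's gap test, which was run on 136 groups of 5 or 6 pools and marks about 5% of groups by chance. Male ethanol 4 held 1.00 M H3K9me3 reads in domains, above the other male ethanol pools, and male ethanol 1 had 14.9% of its run reads there. The median H3K36me3 fold over input of female ethanol 2 was 1.43, the highest of its group.

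The remaining values are H3K9me3 folds over input of single domains. At chr1:88210201-88262400 over the Ugt1a cluster, female water 3 was high at 1.98, and at chr1:171524801-171564800 over Itln1 and Cd244a, male ethanol 3 was high at 1.32. Female water 2, the weakest precipitation, was low at chr8:19903201-19923200, at 1.34. At chr8:123537401-123624200 male ethanol 4 (0.849) and male water 1 (1.14) were the highest of their groups. Male water 1 was low at chr13:65793001-65819600, at 2.15, where its H3K36me3 reads were also lowest, and male water 3 was high at chr17:38505001-38525200, at 2.15.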

How the results depend on the processing

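The number of domains was 27 without merging and 148 when runs up to 2000 bp apart were merged, and 89 to 98 when 1 list was left out. No domain passed the adjusted threshold in any of the 188 alternatives. Among all runs, some did: 82 and 32 for male and female H3K36me3 with DESeq2, 2 for male H3K9me3, 4 for male input and 1 each for the interaction and the sex difference with islands at an FDR of at most 0.01, and, leaving out 1 pool, up to 1 for male H3K36me3, 4 for the interaction and 5 for the sex difference. Counts at the unadjusted threshold moved more. With DESeq2, 2 input domains were called in each sex and 19 for female H3K36me3. With no TMM factors the counts were 2 for male input, 5 for male and 4 for female H3K36me3. With aligned reads as library size they were 11 for male input (all lower, where the single call had been higher), 2 for female H3K9me3, 2 for female input and 8 for the sex difference. With islands at an FDR of at most 0.01 they were 0 for male H3K36me3, 1 for female H3K9me3, 5 for female input (all lower, where the single call had been higher), 1 for female H3K36me3, 2 for the interaction and 0 for the male ratio to input, which became 4 with no centring and 2 with 10 reads added. Leaving out 1 pool gave 0 to 3 for H3K9me3 in each sex (3 without male ethanol 1 and without female water 4, 1 without female water 5), 0 to 2 for male input (2 without male ethanol 4 or male water 4; 0 without male ethanol 1 and 2 and male water 1, 2 and 3), 0 to 1 for female input (0 without female ethanol 1 and 4 and female water 2, 4 and 5), 4 to 11 for male H3K36me3 (4 without male water 2 or 3), 6 to 19 for female H3K36me3 (19 without female ethanol 5), 3 to 27 for the sex difference and 0 for the interaction and the female ratio, and 1 to 2 for the male ratio (2 without male ethanol 4 or male water 4). The causes were not tested. Of the named domains' alternatives, 312 kept their side of the threshold, 20 lost it, 7 gained it and 0 reversed.

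Same-numbered pools of a sex did not deviate together (correlations of -0.07 to 0.06 over runs), so the numbers only name pools. The replicate block left H3K9me3 at 0 in both sexes, and gave 8 and 6 for male and female H3K36me3, 0 and 1 for input (the female 1 a lower domain, in place of the higher one), 3 for the sex difference and 1 and 0 for the ratio. With FDR islands the median log2 change of all runs went from 0.06 to 0.48 in male and from 0.04 to -0.41 in female H3K36me3, and from 0.05 to 0.26 in female H3K9me3, where aligned reads gave 0.15. The median SE of male H3K36me3 changes was 1.07 over all runs and 0.10 in domains.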
